A study of Mus musculus with 31 samples.

Results

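The 36 genes described here encode enzymes and regulators of sterol and fatty acid synthesis, and were taken by symbol from count tables of 48881 Ensembl genes each. All 36 had counts in both tables. They comprise 7 genes of the mevalonate arm, 11 of the squalene and sterol arm, 6 of control and transport, 8 of fatty acid synthesis and desaturation, and 4 on the side of the liver X receptors (LXR). The mouse libraries (strain C57BL/6) are of 2 kinds. Floxed cultures grew from DN1 or DN3 thymocytes, which are early stages of T cell development, of R26-CreERT2;R26-stop-tdTomato mice that also carried E2Af/fHEBf/f. Control cultures came from mice with the same Cre and reporter but without the floxed alleles. The proteins E2A and HEB, of the E protein family, are encoded by Tcf3 and by Tcf12. All cultures grew on a stromal layer, OP9-DL1, which carries a Notch ligand, in the presence of SCF and the cytokines IL-7 and IL-2. Both genotypes received 4-hydroxytamoxifen, which activates the Cre, on day 4. Cells were sampled ahead of the drug on day 4, and those positive for tdTomato were sorted on day 5 and day 7 (2 libraries a group). The labels of the DN1 day 7 libraries give another day for the drug, and the day of the design text is used here. The other libraries hold group 2 innate lymphoid cells (ILC2) taken directly from mice. They came from the thymus (n = 2) and lung (n = 2) of plck-Cre; E2Af/fHEBf/f mice, called dKO after their titles, and from the lung of mice titled Id1 (n = 3). The Id1 title stands for plck-Id1 mice, but 2 of these 3 libraries carry the genotype labels plck-Id2 and plck-Id3. All 3 were grouped by title. Which animals the libraries came from is not given in the sources used here, so p-values measure the spread between these libraries, which may be partly technical.

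Cholesterol is built from acetyl units through mevalonate, farnesyl diphosphate, squalene and a series of sterols. The transcription factors SREBP-1 and SREBP-2, encoded by Srebf1 and Srebf2, are held in the endoplasmic reticulum with SCAP while sterols are plentiful, because SCAP is then bound to the proteins of Insig1 and Insig2. When sterols run low they are released, cut and moved to the nucleus, where SREBP-2 mainly raises sterol genes and SREBP-1 mainly fatty acid genes. LXR, one form of which is encoded by Nr1h2, is activated by oxidised sterols and raises the exporters Abca1 and Abcg1 and the ubiquitin ligase Mylip. Dividing lymphocytes draw on both routes for new membrane.

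Totals ran from 3695522 to 13065445 counts per library. Levels below are normalised CPM (library-size scaled counts, or CPM, adjusted by the trimmed mean of M-values, TMM, within each table), and changes are log2 values from edgeR ± their standard error. Where groups are said not to overlap, this describes the same libraries as the test and adds no support to it. With 2 libraries a group such a gap can readily arise without a difference, and its share over all genes is not given. Tcf12 was lower in floxed cells on day 7 by a log2 change of -1.33 ± 0.10 in DN1 (adjusted p = 6.53e-08) and -1.66 ± 0.10 in DN3 (5.05e-09), and Tcf3 by -1.64 ± 0.37 (0.00326) and -2.03 ± 0.38 (0.000475). In the cultures sex cannot be told apart from genotype: Xist stood at 588 to 1900 CPM in floxed libraries and at 4.55 to 71.4 CPM in controls. Marker sums are CPM of library totals unless given per non-mitochondrial counts. Per non-mitochondrial counts the 9 ILC2 markers summed to 1820 to 3090 CPM in thymic ILC2, to 1080 to 1520 CPM in floxed cultures on day 7 and to 234 to 308 CPM in their controls. The day 4 libraries held OP9 stroma: its 7 markers summed to 1470 to 6050 CPM on day 4 and to 177 to 477 CPM in the cultures of days 5 and 7, and 6 adipocyte markers to 114 to 618 CPM on day 4 and 0.812 to 14.8 CPM later. The DN1 floxed day 7 library b held muscle RNA, with 5 markers at 6850 CPM against 52.6 CPM in library a and at most 412 CPM in any other culture. Mitochondrial genes took 56.3% to 62.0% of the counts in thymic ILC2 and 14.2% to 50.9% in lung ILC2, against 2.02% to 3.55% in the cultures.

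Per kilobase of exon, Scd2, a stearoyl-CoA desaturase, was the most counted of the 36 genes in all 4 day 7 culture groups, and Hmgcs1, which makes the substrate of the mevalonate arm's rate-limiting step, came next. On day 7 Scd2 averaged 184 CPM per kilobase (library range 178 to 191) in DN1 floxed cells and 176 in DN1 controls (176 to 177). In DN3 it averaged 226 (199 to 252) in floxed cells and 176 (168 to 184) in controls. Hmgcs1 averaged 93.2 CPM per kilobase (77.3 to 109) and 106 (102 to 111) in DN1 floxed and control cells, and 170 (160 to 179) and 152 (146 to 159) in DN3. The ranges of these genes did not meet in any of the 4 groups, so their order held in each library.

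**Figure D1:**
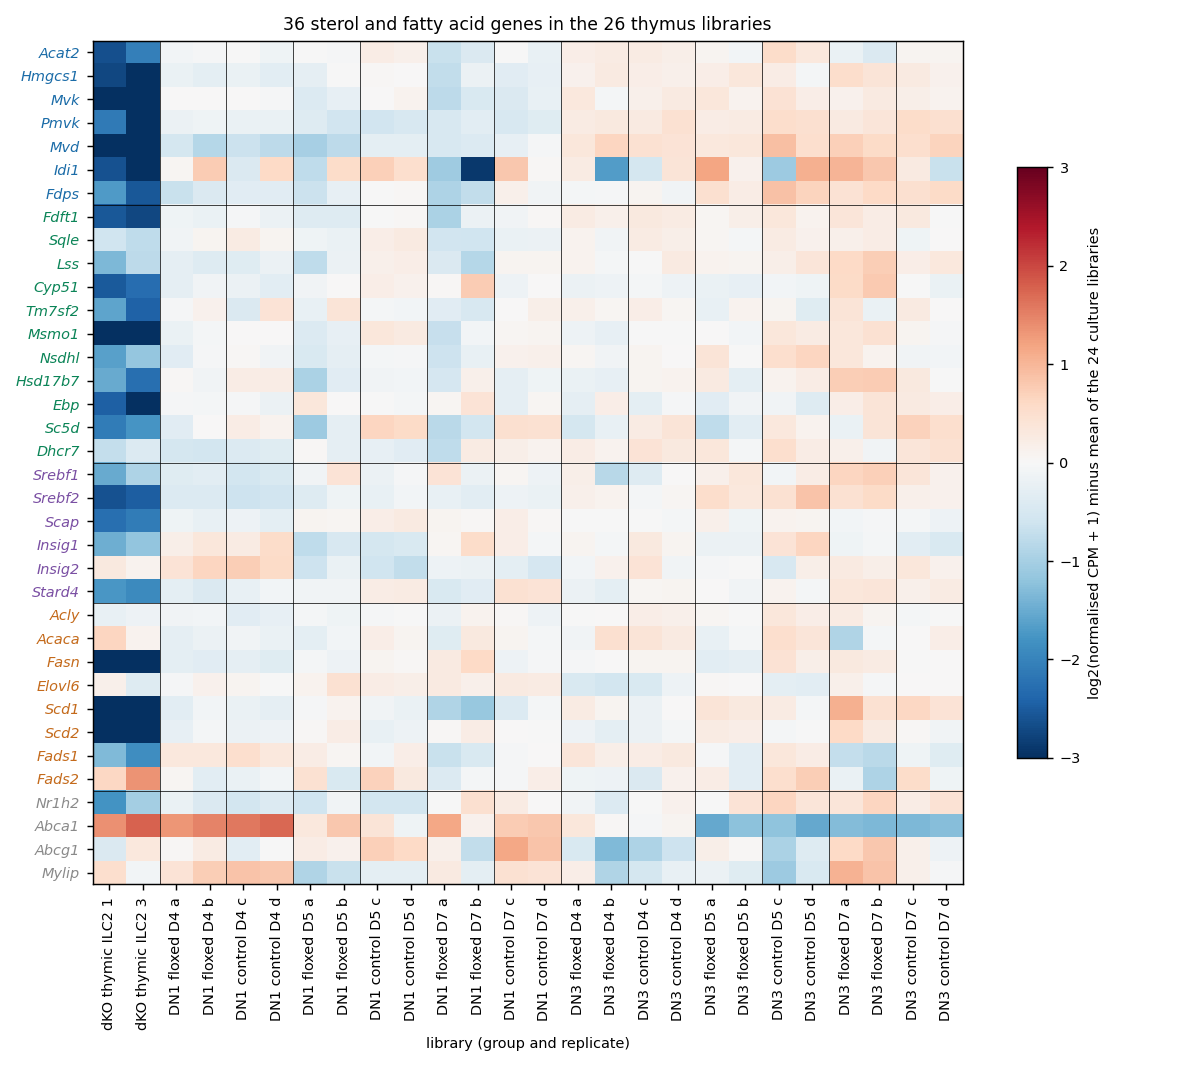
Levels of the 36 genes (rows, coloured by role) in the 26 libraries of the thymus table (columns), as log2(normalised CPM + 1) minus each gene's mean over the 24 culture libraries. The leftmost columns are the thymic ILC2 libraries, where most rows are blue; among the cultures Idi1 varies most between libraries of 1 group.

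On day 4, before deletion, 0 of the 36 genes passed an adjusted p of 0.05 between floxed and control cells in DN1 or in DN3 by edgeR, and 0 by DESeq2. At an unadjusted p under 0.05 edgeR gave 1 gene in DN1 and 2 in DN3, and DESeq2 gave 0 and 2. Of all 15172 genes tested, 0.105% passed in DN1 and 0.442% in DN3. Sc5d, the desaturase that forms the double bond of lathosterol's product, already read lower before the drug: in DN3 it stood at 33.9 and 41.8 normalised CPM in floxed cells and at 58.3 and 64.5 in controls (log2 change -0.67 ± 0.22, adjusted p = 0.367). In DN1 on day 4 it stood at 38.2 and 49.1 in floxed cells and at 57.0 and 52.7 in controls (-0.35 ± 0.22, adjusted p = 0.999). Neither pair of groups overlapped. With no low-count filter edgeR called Sc5d lower in DN3 on day 4 (-0.70, adjusted p = 0.0052). Stard4, a sterol carrier protein of the cytosol, was the gene with an unadjusted p under 0.05 in DN1 (log2 change -0.22 ± 0.10, adjusted p = 0.999) and, with Sc5d, 1 of the 2 in DN3 (-0.28 ± 0.10, adjusted p = 0.438).

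On day 5, 1 day after the drug, 6 of the 36 genes fell in DN1 floxed cells and 0 rose, against 2.46% lower and 2.56% higher among all genes tested. They were Mvd of the mevalonate arm, Sqle, Lss, Msmo1 and Sc5d of the 11 genes of the sterol arm, and Stard4, and 1 of the 6 calls held without any 1 library. No fatty acid gene passed in DN1 on that day. The median log2 change of the 36 was -0.20, beside 0.00 for all genes. T cell markers (7 genes, among them Cd3e, Ptcra and Rag1) summed to 38.7 to 57.4 CPM in these floxed cells and 141 to 150 CPM in controls, and their part was not tested. Whether fewer cells of a kind or less RNA per cell lies behind a lower value cannot be told apart in these bulk libraries.

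Sc5d changed most. Its libraries stood at 22.4 and 40.5 normalised CPM in DN1 floxed cells on day 5, against 77.2 and 73.7 in controls, so both floxed values were far below both controls (log2 change -1.27 ± 0.23, adjusted p = 0.00192). Msmo1, which removes methyl groups from the sterol ring, stood at 93.4 and 104 in floxed cells against 158 and 149 in controls (-0.64 ± 0.13, adjusted p = 0.00681). Mvd, which makes isopentenyl diphosphate, stood at 32.4 and 37.2 against 52.7 and 53.1 (-0.61 ± 0.15, adjusted p = 0.0203). The groups of all these genes were apart. Lss, which closes the sterol rings, stood at 12.2 and 18.7 in floxed cells against 23.7 and 24.7 in controls (-0.66 ± 0.19, adjusted p = 0.046). Sqle, which oxidises squalene, stood at 66.2 and 63.8 against 84.2 and 87.9 (-0.41 ± 0.11, adjusted p = 0.0299). Stard4 stood at 66.2 in both floxed libraries, against 83.5 and 84.6 in controls (-0.35 ± 0.10, adjusted p = 0.0419). Again no floxed value reached a control value.

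Only Sc5d of these 6 held when any 1 of the 4 libraries was left out. The calls of Mvd, Sqle and Stard4 were lost whichever of the 4 libraries was left out (adjusted p of 0.0819 to 0.146, 0.0798 to 0.252 and 0.131 to 0.263), with log2 changes of -0.71 to -0.52, -0.45 to -0.38 and -0.36 to -0.34. Lss was lost without floxed a (-0.38, adjusted p = 0.373), control c (-0.69, 0.176) or control d (-0.62, 0.252), and Msmo1 without floxed a (-0.57, 0.0635) or control c (-0.60, 0.0825).

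The start regions of genes from both arms show which letters are near them. RefSeq windows of build GRCm38.p6, from 250 bases before to 50 after each start, were used for 28 of the 36 genes. They are printed 5′ to 3′ on the gene's strand for Sc5d, Msmo1 and Lss, which fell in DN1, for Cyp51 and Fasn, which rose on day 7 below, and for Hmgcs1 as the entry of the mevalonate arm. Capitals mark TCACNCCAC, a form of the sterol response element, the E-boxes CAGCTG and CACCTG, which E proteins bind, the E-box CACGTG and the CCAAT box, all on either strand. The windows are chr13:119690101-119690400 (+) for Hmgcs1, chr9:42264251-42264550 (-) for Sc5d, chr8:64733529-64733828 (-) for Msmo1, chr10:76531355-76531654 (+) for Lss, chr5:4104648-4104947 (-) for Cyp51 and chr11:120824498-120824797 (-) for Fasn.
Sc5d: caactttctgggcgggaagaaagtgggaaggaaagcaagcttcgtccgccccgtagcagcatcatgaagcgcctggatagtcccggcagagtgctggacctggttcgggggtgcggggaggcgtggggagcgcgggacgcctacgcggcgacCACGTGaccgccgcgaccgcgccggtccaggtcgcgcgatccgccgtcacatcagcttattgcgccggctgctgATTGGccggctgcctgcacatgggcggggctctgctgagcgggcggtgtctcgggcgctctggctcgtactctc
Msmo1: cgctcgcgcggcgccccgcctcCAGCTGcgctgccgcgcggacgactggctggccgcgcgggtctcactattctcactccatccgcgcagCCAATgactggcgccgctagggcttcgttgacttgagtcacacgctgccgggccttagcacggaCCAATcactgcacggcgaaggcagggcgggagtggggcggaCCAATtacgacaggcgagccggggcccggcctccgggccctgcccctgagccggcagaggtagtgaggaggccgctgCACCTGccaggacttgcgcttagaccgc
Lss: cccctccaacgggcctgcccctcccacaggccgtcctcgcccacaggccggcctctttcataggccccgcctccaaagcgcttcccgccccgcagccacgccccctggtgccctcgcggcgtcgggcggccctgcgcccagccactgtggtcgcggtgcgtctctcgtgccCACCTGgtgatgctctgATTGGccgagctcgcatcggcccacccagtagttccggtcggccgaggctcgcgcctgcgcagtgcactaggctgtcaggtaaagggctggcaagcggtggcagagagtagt
Cyp51: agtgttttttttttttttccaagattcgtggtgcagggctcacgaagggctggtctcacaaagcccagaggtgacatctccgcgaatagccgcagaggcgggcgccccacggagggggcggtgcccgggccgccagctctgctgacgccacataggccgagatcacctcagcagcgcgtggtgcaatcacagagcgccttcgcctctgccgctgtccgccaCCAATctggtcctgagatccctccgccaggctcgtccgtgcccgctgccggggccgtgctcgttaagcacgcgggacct
Fasn: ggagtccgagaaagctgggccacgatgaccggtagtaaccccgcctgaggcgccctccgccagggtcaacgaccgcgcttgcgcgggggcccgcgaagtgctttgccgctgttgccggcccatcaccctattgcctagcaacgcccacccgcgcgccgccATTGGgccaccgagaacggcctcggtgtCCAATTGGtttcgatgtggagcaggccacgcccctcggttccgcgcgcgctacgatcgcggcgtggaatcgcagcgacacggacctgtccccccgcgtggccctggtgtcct
Hmgcs1: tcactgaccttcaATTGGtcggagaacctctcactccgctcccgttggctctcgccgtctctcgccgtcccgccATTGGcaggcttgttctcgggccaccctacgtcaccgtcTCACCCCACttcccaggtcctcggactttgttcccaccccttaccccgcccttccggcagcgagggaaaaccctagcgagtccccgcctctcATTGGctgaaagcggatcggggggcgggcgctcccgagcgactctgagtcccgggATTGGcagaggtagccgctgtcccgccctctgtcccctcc

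The 28 genes had 36 windows, and a gene was counted when any of its windows held a match. Stard4 was not among the 28, because windows on its chromosome were left out by choice for the 36 genes. The shares of all windows were not limited in this way. Shares of all windows count single windows, so the paired percentages are of unlike units. A gene with several windows had more openings for a match. In these windows TCACNCCAC was found in Hmgcs1 alone of the 28 genes (3.57%), and in 1.24% of all 32851 windows. CCAAT was found in 21 of the 28 (75.0%) and in 37.4% of all windows, and each of the 6 printed windows holds it. CACCTG was found in 7 of the 28 (25.0%), Lss and Msmo1 among them, and in 20.2% of all windows. CAGCTG was found in 4 of the 28 (14.3%), Msmo1 among them, and in 16.3% of all windows. CACGTG was found in 6 of the 28 (21.4%), Sc5d among them, and in 7.15% of all windows. In Fasn 2 CCAAT boxes on opposite strands share letters, and no other matches overlapped in the printed windows. A match is a run of letters and not a shown site of binding.

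By day 7, 2 of the 36 genes rose and 13 fell in DN1 floxed cells, against 12.2% higher and 10.3% lower among all genes. The lower genes were 36.1% of the 36. The fall was spread over the sterol route: 3 of the 7 mevalonate genes fell (Acat2, Idi1 and Fdps) and 6 of the 11 sterol genes (Fdft1, Sqle, Lss, Msmo1, Nsdhl and Sc5d). Stard4, the desaturases Scd1 and Fads1, and the exporter Abcg1 fell too. Cyp51, the lanosterol demethylase, and Fasn, the fatty acid synthase, rose. The median log2 change was -0.43 in the sterol arm and -0.31 in the mevalonate arm, beside 0.07 among the control and transport genes and 0.00 over all genes. The T cell markers summed to 29.7 to 34.8 CPM in DN1 floxed cells on day 7, with Cd8a at 0, and to 359 to 381 CPM in controls, and their part was not tested.

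Stard4 was the steadiest. It stood at 52.1 and 55.8 normalised CPM in DN1 floxed cells on day 7, against 99.0 and 95.5 in controls (log2 change -0.84 ± 0.10, adjusted p = 6.66e-06). Sc5d stood at 27.5 and 33.1 in floxed cells against 68.8 and 68.1 in controls (-1.17 ± 0.23, adjusted p = 0.000996). Fdps, which makes farnesyl diphosphate, stood at 11.7 and 13.6 against 25.7 and 21.6 (-0.89 ± 0.17, adjusted p = 0.000743). For each of these 3 genes both floxed libraries lay well below the lower control. Fdps shares 26.7% of its exon length with the predicted gene Gm43738 on the same strand, so its reads may be split.

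Abcg1, which moves cholesterol out of the cell, stood at 24.7 and 12.9 in DN1 floxed cells on day 7 against 50.7 and 40.9 in controls (log2 change -1.27 ± 0.27, adjusted p = 0.00237). Lss stood at 15.5 and 11.4 against 22.5 and 22.8 (-0.74 ± 0.19, adjusted p = 0.0077). Scd1 stood at 21.5 and 18.1 against 30.5 and 38.9 (-0.80 ± 0.19, adjusted p = 0.00505). Each control exceeded each floxed library for all 3 genes. Fads1, which makes long polyunsaturated fatty acids, stood at 30.1 and 35.3 in floxed cells against 47.5 and 48.6 in controls (-0.55 ± 0.14, adjusted p = 0.00773). Nsdhl, a sterol dehydrogenase, stood at 16.0 and 21.5 against 27.8 and 28.2 (-0.58 ± 0.17, adjusted p = 0.0205). Nsdhl lies on chromosome X, and the part of sex in its change was not tested. Fads1 and Nsdhl did not overlap between genotypes either.

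Idi1, the isomerase that supplies dimethylallyl diphosphate, had the largest fitted change and the widest spread. It stood at 39.2 and 10.3 in DN1 floxed cells on day 7 against 149 and 85.9 in controls (log2 change -2.22 ± 0.73, adjusted p = 0.0357). On day 4 its floxed values of 87.4 and 143 and its control values of 61.9 and 127 overlapped. The remaining lower genes had smaller changes: -0.49 ± 0.17 for Fdft1 (adjusted p = 0.0394), -0.43 ± 0.11 for Acat2 (0.00838), -0.43 ± 0.13 for Msmo1 (0.0283) and -0.41 ± 0.11 for Sqle (0.0116). Fdft1, the squalene synthase, shares 18.3% of its exon length with Ctsb on the opposite strand, and the strand setting of the counts is not given in the sources used here.

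The 2 genes that rose in DN1 differed in how even they were. Fasn stood at 375 and 473 normalised CPM in floxed cells on day 7 against 283 and 305 in controls, all apart (log2 change 0.53 ± 0.10, adjusted p = 0.00074). Cyp51 stood at 250 and 417 in floxed cells against 220 and 249 in controls. Floxed library a therefore lay just above the higher control, and library b, the one with muscle RNA, far above it (0.51 ± 0.15, adjusted p = 0.0215). Without library b the Cyp51 change was 0.11 (adjusted p = 0.663), and without control c it was 0.40 (0.181). The part of the muscle RNA in this result was not tested.

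**Figure D2:**
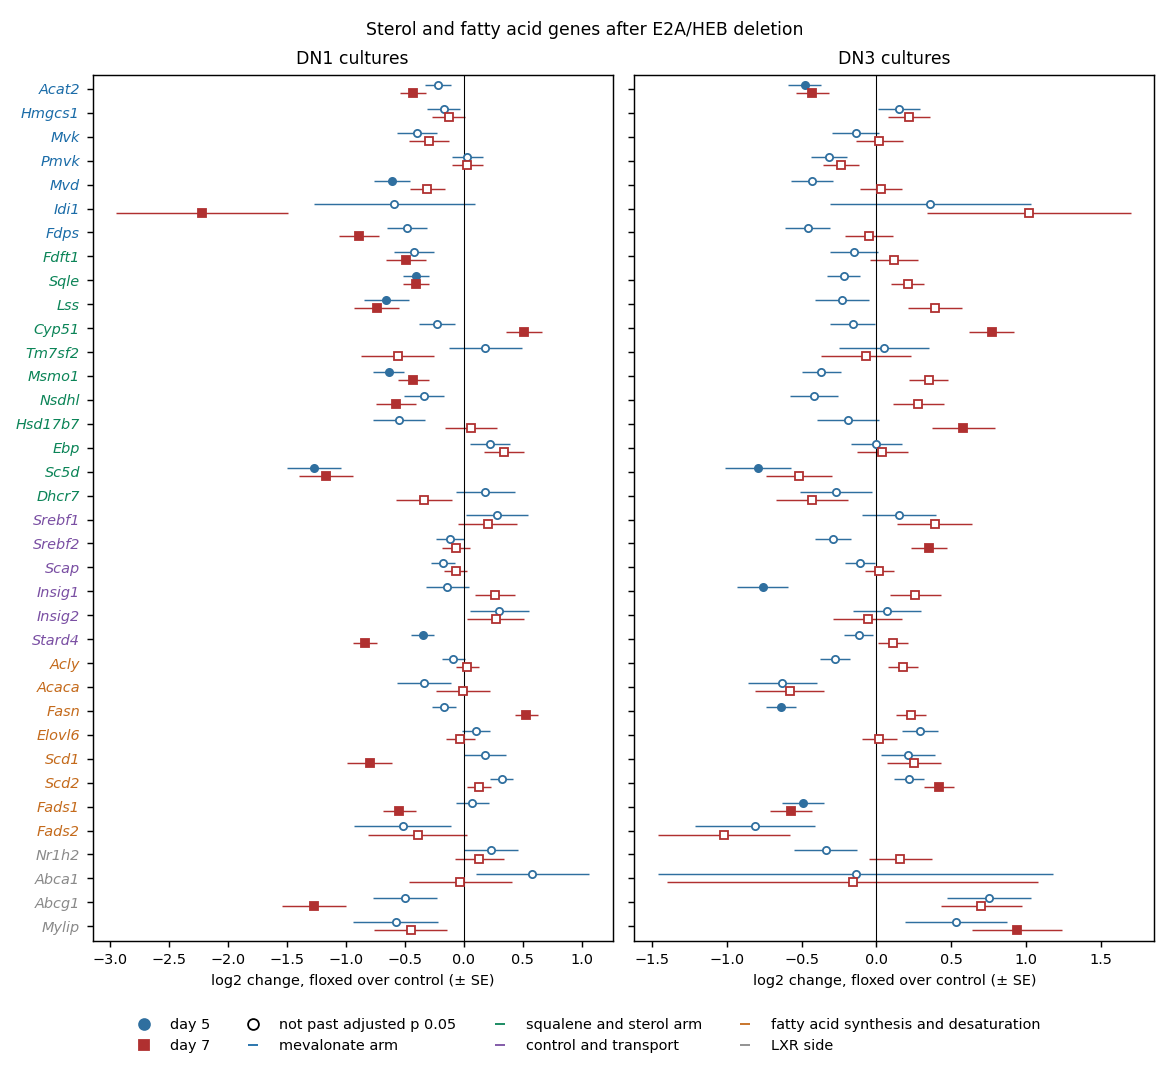
Log2 change of each gene, floxed over control, with its standard error, for DN1 (left) and DN3 (right) cultures on day 5 (circles) and day 7 (squares); filled symbols passed an adjusted p of 0.05, and the horizontal scales of the panels differ. In DN1 Sc5d lies at -1.27 on day 5 and -1.17 on day 7, while in DN3 Cyp51 lies at 0.77 on day 7.

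Of the 15 calls of DN1 day 7, 5 held without any 1 of the 4 libraries: Fdps, Sc5d, Stard4, Fasn and Abcg1. Sc5d and Stard4 were the 2 of the 36 that passed with those 4 libraries fitted alone, where 798 of the 12854 genes tested were called, a share close to theirs. Acat2 was lost without control c (log2 change -0.34, adjusted p = 0.105), and Fads1 without control d (-0.52, 0.0589). Sqle was lost without floxed b (-0.39, 0.0679) or control d (-0.38, 0.0815), Lss without floxed b (-0.53, 0.124) or control d (-0.72, 0.0504), and Scd1 without floxed b (-0.68, 0.069) or control d (-0.60, 0.0908). Idi1 was lost without floxed b (-1.56, 0.278), control c (-1.79, 0.184) or control d (-2.55, 0.055). Fdft1, Msmo1 and Nsdhl were each lost without floxed a, at -0.18 (0.335), -0.17 (0.248) and -0.40 (0.114). They were also lost without control c, at -0.59 (0.0682), -0.46 (0.08) and -0.61 (0.0705), and without control d, at -0.40 (0.215), -0.40 (0.133) and -0.55 (0.1).

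In DN3 cultures on day 5, 5 of the 36 genes fell in floxed cells and 0 rose, against 5.20% lower and 4.56% higher among all genes. They were Acat2, which makes acetoacetyl-CoA, Sc5d, Insig1, Fasn and Fads1. The median log2 change of the 36 was -0.21, beside 0.00 for all genes. The day 5 changes of the precursors were not tested against each other. Fasn stood at 252 and 257 normalised CPM in floxed cells against 422 and 351 in controls (log2 change -0.64 ± 0.10, adjusted p = 0.000382). Insig1, which retains SCAP, stood at 23.3 and 23.4 against 35.5 and 41.7 (-0.76 ± 0.17, adjusted p = 0.00599). Sc5d stood at 28.3 and 39.2 against 61.2 and 52.9 (-0.79 ± 0.22, adjusted p = 0.0304). Its log2 change in DN3 on day 4 was -0.67, and the change of this difference from day 4 to day 5 was not tested. None of the 3 genes overlapped on day 5. Acat2 stood at 128 and 115 in floxed cells against 179 and 153 in controls (-0.48 ± 0.11, adjusted p = 0.00696). Fads1 stood at 47.7 and 38.6 against 61.4 and 56.8 (-0.49 ± 0.14, adjusted p = 0.0277), and these groups were apart as well. Fasn alone kept its call without any 1 library. The Acat2 call ended without control c (-0.36, 0.117) or floxed b (-0.40, 0.131), Insig1 without floxed b (-0.75, 0.0674) or control d (-0.64, 0.077), and Fads1 without floxed b (-0.33, 0.337), control c (-0.43, 0.179) or control d (-0.54, 0.0757). Sc5d was lost whichever of the 4 was left out (-1.03 to -0.59, adjusted p of 0.0553 to 0.226). With the 8 day 4 libraries out of the fit, 3 of the 5 passed.

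Division markers were lower in DN3 floxed than in DN3 control cells on both days: 5 genes (Mki67, Top2a, Ccnb1, Cdk1 and Mcm5) summed to 2800 to 3110 CPM in floxed and 4000 to 4170 CPM in control cells on day 5, and to 1530 to 1670 and 2650 to 2910 CPM on day 7. In DN1 they summed to 2460 to 2490 CPM in floxed and 2360 to 2370 CPM in control cells on day 5, and to 1810 to 1900 and 1910 to 2050 CPM on day 7. The T cell markers in DN3 summed to 620 to 735 CPM in floxed and 1070 to 1230 CPM in control cells on day 5, and to 377 to 446 CPM in floxed cells and 1550 CPM in both controls on day 7. The part of either list in the sterol and fatty acid values was not tested.

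On day 7 in DN3, 5 of the 36 genes rose and 2 fell in floxed cells, against 12.9% higher and 12% lower among all genes, so the shares of 13.9% and 5.56% were near or below the background. Cyp51 was the most stable of them. It stood at 369 and 424 normalised CPM in floxed cells against 242 and 213 in controls (log2 change 0.77 ± 0.15, adjusted p = 0.000963). Scd2 stood at 1382 and 1104 against 949 and 858 (0.42 ± 0.10, adjusted p = 0.0044). Mylip, which marks lipoprotein receptors for breakdown, stood at 17.8 and 15.5 against 9.06 and 7.92 (0.94 ± 0.30, adjusted p = 0.0297). In all 3 the floxed libraries were the higher ones without overlap. Hsd17b7, a sterol ketone reductase, stood at 47.6 and 48.7 in floxed cells against 34.9 and 28.1 in controls (0.58 ± 0.21, adjusted p = 0.0487). Srebf2 stood at 145 and 158 against 116 in both controls (0.35 ± 0.12, adjusted p = 0.0399). Both were separate between genotypes.

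Acat2 and Fads1 fell in DN3 on day 7, as both also did in DN1 on that day. Acat2 stood at 106 and 90.2 in DN3 floxed cells against 129 and 130 in controls (log2 change -0.43 ± 0.11, adjusted p = 0.00605). Fads1 stood at 29.2 and 27.5 against 44.7 and 37.7 (-0.57 ± 0.14, adjusted p = 0.00546). No value of these groups overlapped. Cyp51 alone of the 7 held without any 1 library. Hsd17b7, Srebf2 and Mylip were lost whichever of the 4 was left out (log2 changes of 0.43 to 0.74, 0.28 to 0.41 and 0.84 to 1.03, adjusted p of 0.0621 to 0.33, 0.0682 to 0.255 and 0.0774 to 0.19). Scd2 was lost without floxed a (0.25, 0.123) or control d (0.36, 0.0746), Acat2 without floxed b (-0.32, 0.112), and Fads1 without floxed b (-0.54, 0.0605) or control c (-0.45, 0.0755).

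**Figure D3:**
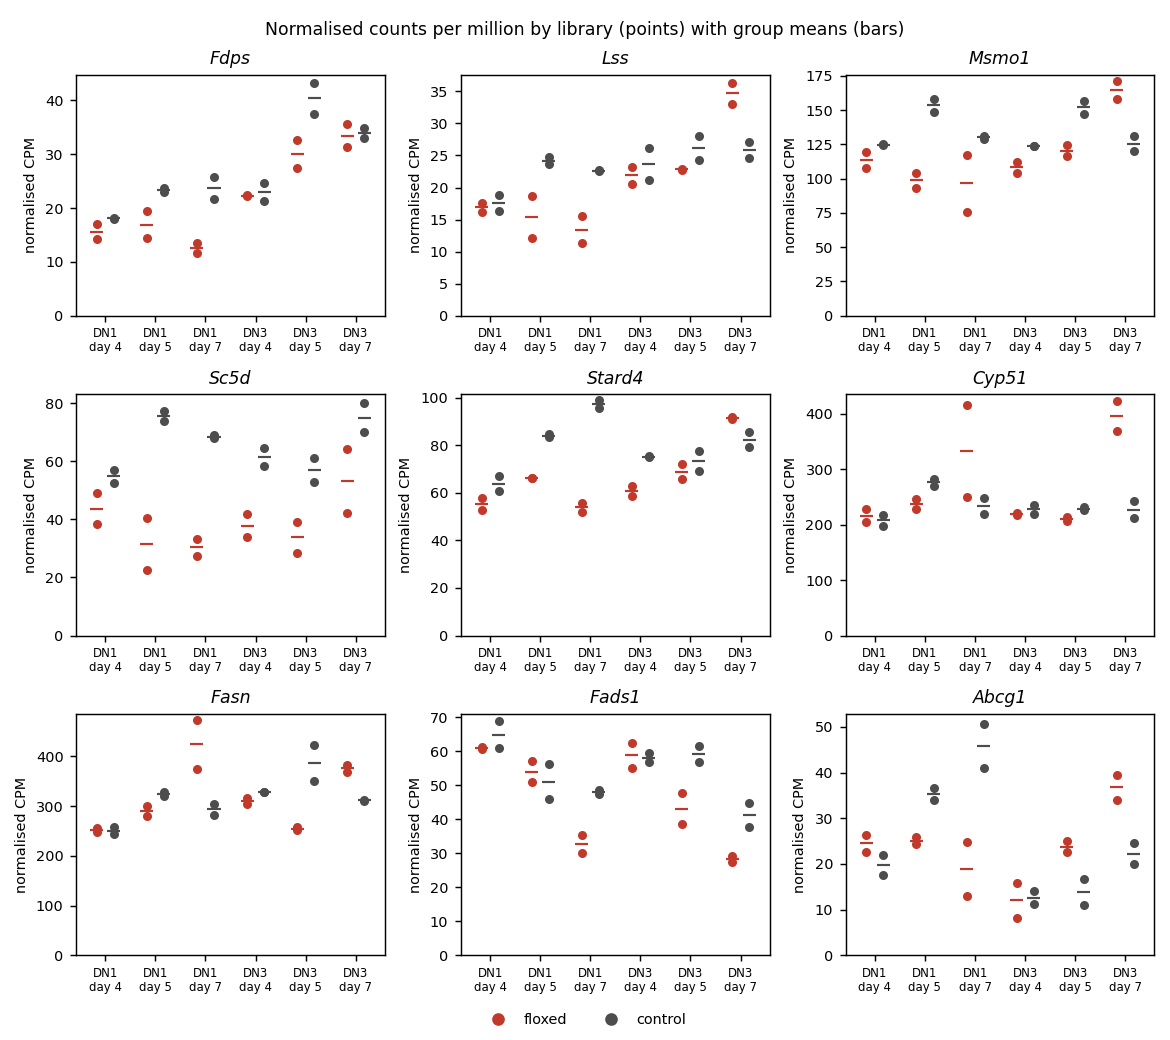
Normalised CPM of 9 genes in each culture library (points) with group means (bars), floxed in red to the left of control in grey, by precursor and day. Stard4 in DN1 on day 7 shows 52.1 and 55.8 in floxed cells below 99.0 and 95.5 in controls, and no such gap in DN3, where floxed cells had 91.1 and 91.8 and controls 79.3 and 85.4.

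The difference between precursors was tested itself, as the DN1 response minus the DN3 response on day 7. It was negative past the threshold for 8 of the 36 genes and positive for 0, against 3.98% and 3.81% of all genes. These were Fdps, Sqle, Lss, Msmo1, Nsdhl, Stard4, Scd1 and Abcg1, of which 4 belong to the sterol arm. The DN3 floxed and control values beside the DN1 values above were, for Lss, 33.1 and 36.4 against 24.5 and 27, so that Lss was the higher in floxed DN3 cells and the lower in floxed DN1 cells (difference of log2 changes -1.13 ± 0.26, adjusted p = 0.0103). For Abcg1 they were 34.1 and 39.5 against 24.7 and 19.9 (difference -1.96 ± 0.38, adjusted p = 0.00381), and for Stard4 91.1 and 91.8 against 79.3 and 85.4 (-0.96 ± 0.14, adjusted p = 0.000326).

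For Scd1 the DN3 values were 87.0 and 56.4 in floxed cells against 62.9 and 54.2 in controls, which overlap (difference -1.06 ± 0.26, adjusted p = 0.0166). The difference was -0.84 ± 0.23 for Fdps (adjusted p = 0.0284), -0.78 ± 0.19 for Msmo1 (0.015), -0.86 ± 0.24 for Nsdhl (0.0344) and -0.62 ± 0.15 for Sqle (0.0171). Stard4 and Abcg1 held without any 1 of the 8 libraries. Lss was lost without DN3 floxed b (-1.06, 0.0518). Sqle was lost without DN1 control d (-0.60, 0.069), DN3 floxed b (-0.59, 0.0673) or DN3 control c (-0.56, 0.0795), and Msmo1 without DN1 control d (-0.75, 0.0582), DN3 floxed b (-0.72, 0.0649) or DN3 control d (-0.73, 0.0813). Fdps was lost without DN1 control c (-0.73, 0.13), DN3 floxed b (-0.75, 0.118), DN3 control c (-0.80, 0.0922) or DN3 control d (-0.89, 0.079). Scd1 was lost without DN1 floxed b (-0.92, 0.0623), DN1 control d (-0.86, 0.101), DN3 floxed a (-0.72, 0.102) or DN3 control d (-0.96, 0.0939). Nsdhl was lost in 6 of the 8 fits (-0.88 to -0.67, adjusted p of 0.0643 to 0.13), and kept without DN1 floxed b or DN3 floxed b.

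The regulators did not pass between genotypes in DN1 on day 7, and of them Srebf2 alone passed in DN3. Srebf2 stood at 90 and 84.8 normalised CPM in DN1 floxed cells on day 7 against 94.2 and 90.7 in controls (log2 change -0.07 ± 0.12, adjusted p = 0.707). Srebf1 stood at 52.6 and 34.6 against 40.9 and 35.3 in DN1 (0.20 ± 0.25, adjusted p = 0.603). In DN3 it stood at 61.7 and 64.9 in floxed cells against 51.1 and 43.4 in controls (0.39 ± 0.25, adjusted p = 0.29). Srebf1 overlapped between genotypes in DN1 and did not in DN3, and it did not pass in either. Insig1 stood at 27.7 and 39.0 in DN1 floxed cells against 30.5 and 25.4 in controls (0.26 ± 0.17, adjusted p = 0.274), and at 23.9 and 25.3 against 21.1 and 19.1 in DN3 (0.26 ± 0.17, adjusted p = 0.315). Scd2 in DN1 stood at 944 and 1066 in floxed cells on day 7 against 928 and 919 in controls (0.13 ± 0.10, adjusted p = 0.393). On day 5 it stood at 948 and 1075 against 792 and 822 (0.32 ± 0.10, adjusted p = 0.0852). Scap and Insig2 did not pass in any of these genotype comparisons. A p above the threshold does not show that a gene was level.

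Abca1, the exporter that loads lipoproteins with cholesterol, was higher in DN1 than in DN3 controls. In DN1 on day 7 it stood at 5.50 and 2.17 normalised CPM in floxed cells against 3.87 and 4.03 in controls, which overlap (log2 change -0.03 ± 0.44, adjusted p = 0.981). In DN3 floxed and control cells on day 7 it had 2 and 3 counts in all. DN1 controls had 23.0 times the Abca1 level of DN3 controls on day 7 (95% interval 7.54 to 114, from 67 and 3 counts) and 16.6 times on day 5 (4.22 to 143, from 32 and 2 counts), and these intervals cover counting error only. On day 4, when stroma was present, Abca1 stood at 6.29 and 7.18 in DN1 floxed and 7.66 and 8.59 in DN1 control libraries, and at 2.66 and 1.97 in DN3 floxed and 1.81 and 2.07 in DN3 control libraries. The part of the stroma in the day 4 values was not tested.

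In controls several mevalonate genes were lower in DN1 than in DN3. On day 7, 8 of the 36 genes were lower in DN1 controls and 2 higher, against 11.2% and 11.4% of all genes, and 5 of the 7 mevalonate genes were among the lower (Hmgcs1, Mvk, Pmvk, Mvd and Fdps). Acat2 and Idi1 did not pass, and Idi1 read 149 and 85.9 normalised CPM in DN1 controls and 101 and 52.7 in DN3 controls. On day 5 the counts were 10 lower and 3 higher, against 14.5% and 15.5%, and 3 of the 7 mevalonate genes were among the lower (Pmvk, Mvd and Fdps). Pmvk, the phosphomevalonate kinase, stood at 20.2 and 21.7 in DN1 and 41.7 and 40.3 in DN3 controls on day 7 (log2 change -1.01 ± 0.12, adjusted p = 5.43e-06), and its change on day 5 was -1.09 ± 0.12 (1.68e-06). Mvd stood at 54.9 and 63.9 in DN1 and 92.8 and 104 in DN3 controls on day 7 (-0.77 ± 0.14, adjusted p = 0.000554). Abcg1 was higher in DN1, at 50.7 and 40.9 against 24.7 and 19.9 (1.0 ± 0.27, adjusted p = 0.00999), and this call was lost without either of 2 libraries (0.85, adjusted p of 0.0962 to 0.125). None of these 3 genes overlapped. On day 7, 3 of the 10 calls held without any 1 library (Pmvk, Mvd and Abca1), and 4 to 7 passed with 1 library left out. On day 5, 9 of the 13 held, among them Pmvk, Mvd, Fdps, Srebf2 and Insig1. Division and T cell markers were also lower in DN1 controls, as given above, and their part in these values was not tested.

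Each culture on day 7 was also set against its own day 5, and the difference between precursors in this change was not tested. In DN3 floxed cells, 9 of the 36 genes were higher on day 7 and 2 lower, against 13.6% and 10.9% of all genes, and 6 of the 11 sterol genes were among the higher (Lss, Cyp51, Msmo1, Hsd17b7, Ebp and Sc5d). Cyp51 stood at 369 and 424 on day 7 against 214 and 207 on day 5 (log2 change 0.89 ± 0.15, adjusted p = 0.000222), Fasn at 382 and 369 against 252 and 257 (0.54 ± 0.10, adjusted p = 0.000453), and Mylip at 17.8 and 15.5 against 7.07 and 6.11 (1.31 ± 0.31, adjusted p = 0.00391). These 3 held without any 1 library, and their days did not overlap. In DN3 controls 7 genes were lower on day 7 and 0 higher, against 9.73% and 10.5%. Insig1 among them stood at 21.1 and 19.1 on day 7 against 35.5 and 41.7 on day 5 (-0.96 ± 0.17, adjusted p = 0.00044). Insig1 alone of the 7 held without any 1 library.

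In DN1 floxed cells, 4 genes were higher and 5 lower on day 7 than on day 5, against 12% and 9.47% of all genes, so the shares of 11.1% and 13.9% were near the background. Insig1 was higher, at 27.7 and 39.0 on day 7 against 15.2 and 18.6 on day 5 (log2 change 0.97 ± 0.17, adjusted p = 0.00073), and so was Fasn (0.53 ± 0.10, adjusted p = 0.00103). Scd1 was lower, at 21.5 and 18.1 on day 7 against 39.9 and 44.0 on day 5 (-1.10 ± 0.19, adjusted p = 0.000586), and so were Fads1 (-0.74 ± 0.14, adjusted p = 0.00112) and Acat2 (-0.54 ± 0.11, adjusted p = 0.00184). These 5 held without any 1 library, while 0 of the 36 passed with the 4 libraries fitted alone, where 133 of the 12479 genes tested were called. In DN1 controls 2 were higher (Insig1 and Nr1h2) and 2 lower (Acat2 and Sqle), against 6.45% and 6.65% of all genes, and 0 of the 4 held without any 1 library.

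The change of the genotype difference over time was also tested. From day 5 to day 7 in DN3 it was positive for 5 genes and negative for 0, against 3.66% and 3.54% of all genes: Fasn (difference of log2 changes 0.87 ± 0.14, adjusted p = 0.0012), Insig1 (1.02 ± 0.24, 0.0147), Cyp51 (0.92 ± 0.22, 0.0145), Msmo1 (0.73 ± 0.19, 0.0245) and Srebf2 (0.64 ± 0.17, 0.0287). Fasn alone held without any 1 of the 8 libraries. The other calls were lost without 3 of the 8 for Cyp51 (adjusted p of 0.0559 to 0.0789), 4 for Insig1 (0.0507 to 0.0721), 6 for Msmo1 (0.0532 to 0.111) and 5 for Srebf2 (0.0871 to 0.191). Floxed b of either day was among them for each of these 4 genes. In DN1 over the same days Fasn alone passed (0.70 ± 0.14, adjusted p = 0.0144), in a comparison where 0.870% of all genes were higher and 0.758% lower, and it was lost without 5 of the 8 libraries (0.0577 to 0.092), at log2 values of 0.53 to 0.71.

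From day 4 to day 7 the difference passed for 3 genes in each precursor, with the day 4 stroma in the comparison. In DN1 Fasn was positive (0.54 ± 0.14, adjusted p = 0.0232) and Stard4 (-0.62 ± 0.14, 0.009) and Abcg1 (-1.57 ± 0.39, 0.0165) were negative, against 4.17% and 3.61% of all genes. In DN3 Cyp51 (0.79 ± 0.22, 0.0209) and Scd2 (0.50 ± 0.14, 0.03) were positive and Fads1 (-0.62 ± 0.20, 0.0457) negative, against 6.02% and 6.28%. Each of these 6 calls was lost without at least 2 of the 8 libraries. Stard4 was lost without DN1 floxed a (-0.56, 0.0589) or control c (-0.55, 0.0641) of day 4. Fads1 was lost whichever of the 8 was left out (-0.73 to -0.50, adjusted p of 0.053 to 0.18). The others were lost without 4 or 5 libraries, at adjusted p of 0.0669 to 0.136 for Fasn, 0.057 to 0.092 for Abcg1, 0.0563 to 0.107 for Cyp51 and 0.116 to 0.169 for Scd2. Sc5d, which read lower in floxed cells on day 4, did not pass from day 4 to day 7 in either precursor.

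In ILC2 taken from dKO thymus, most mevalonate and sterol genes were lower than in the floxed cultures, relative to other genes, while the fatty acid and LXR genes were mixed. In CPM of non-mitochondrial counts the 36 genes summed to 1200 and 1260 in thymic ILC2, and to 3300 to 5030 in the 24 culture libraries. Against DN1 floxed cells of day 7, 24 genes were lower in thymic ILC2 and 1 higher, where 40.1% of all 16391 genes tested were lower and 33.6% higher. Against DN3 floxed cells of day 7, 29 were lower and 3 higher, where 38.8% were lower and 33.0% higher. The 2 comparisons share the thymic libraries. Xist stood at 0.176 to 0.208 CPM and Ddx3y at 102 CPM in thymic ILC2, against 588 to 1900 and 0.248 to 14.2 CPM in floxed cultures, so cell type, source and sex cannot be told apart here. The median log2 change of the 36 was -1.60 beside -0.26 for all genes in the first and -2.16 beside -0.20 in the other. By role, 6 of the 7 mevalonate genes, 8 of the 11 sterol genes and 5 of the 6 control and transport genes were lower than in DN1, and 7, 10 and 5 than in DN3. Of the 8 fatty acid genes, 4 were lower and 1 higher than in DN1 (median -0.69), a lower share of 50% near that of all genes, and 5 were lower and 2 higher than in DN3 (median -0.60). Of the 4 LXR genes, 1 was lower and 0 higher than in DN1 (median 0.23), and 2 lower and 1 higher than in DN3 (median -0.76). Per non-mitochondrial counts the T cell markers summed to 638 to 824 CPM in thymic ILC2, against 30.5 to 35.6 CPM in DN1 and 387 to 457 CPM in DN3 floxed cells of day 7, and the adipocyte markers to 25.0 to 50.9 CPM, all of it Pparg, against 0.832 to 13.2 CPM. Their part was not tested.

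Among the genes far below the cultures were Scd2, Scd1, Fasn, Mvd and Mvk. Scd2 stood at 57.9 and 105 normalised CPM in thymic ILC2, against 944 and 1066 in DN1 floxed cells (log2 change -3.62 ± 0.18, adjusted p = 7.17e-14) and 1382 and 1104 in DN3 floxed cells (-3.93 ± 0.18, 2.24e-14). Scd1 stood at 0.644 and 2.54, against 21.5 and 18.1 (-3.62 ± 0.38, 1.67e-08) and 87.0 and 56.4 (-5.47 ± 0.34, 2.84e-12). Fasn stood at 30.6 and 35.2, against 375 and 473 (-3.69 ± 0.13, 1.81e-16) and 382 and 369 (-3.51 ± 0.13, 4.26e-16). No ILC2 library came near a culture for these 3 genes. Mvd stood at 4.51 and 3.49 in thymic ILC2, against 46.5 and 49.0 in DN1 (-3.57 ± 0.23, 5.25e-12) and 108 and 98.2 in DN3 (-4.69 ± 0.22, 2.83e-14). Mvk, the mevalonate kinase, stood at 1.29 and 0.952, against 11.5 and 14.5 (-3.52 ± 0.33, 2.63e-09) and 22.4 and 24.6 (-4.37 ± 0.31, 2.63e-11). These adjusted p values and those that follow are from edgeR over the 26 libraries of the table.

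Ebp, a sterol isomerase on chromosome X, stood at 9.98 and 3.17 normalised CPM in thymic ILC2, against 61.6 and 78.9 in DN1 floxed cells (log2 change -3.42 ± 0.30, adjusted p = 7.98e-10) and 68.5 and 78.2 in DN3 (-3.48 ± 0.30, 6.26e-10). Msmo1 stood at 14.2 and 8.88, against 75.9 and 117 (-3.07 ± 0.20, 5.92e-12) and 158 and 171 (-3.84 ± 0.20, 1.2e-13). Idi1 stood at 12.9 and 6.66, against 39.2 and 10.3 in DN1, where it overlapped and did not pass, and 170 and 148 in DN3 (-4.02 ± 0.86, 0.000268). Of the regulators, Srebf2 stood at 16.4 and 18.1 against 90 and 84.8 (-2.34 ± 0.16, 1.02e-11) and 145 and 158 (-3.13 ± 0.16, 6.6e-14). Srebf1 stood at 13.2 and 20.3 against 52.6 and 34.6 (-1.38 ± 0.30, 0.000312) and 61.7 and 64.9 (-1.92 ± 0.30, 6.76e-06). Insig1 stood at 9.01 and 11.1 against 27.7 and 39.0 (-1.73 ± 0.21, 2.72e-07) and 23.9 and 25.3 (-1.29 ± 0.22, 2.06e-05). These 3 were below both cultures without overlap. Insig2, of the same role, did not pass, at 13 to 14.8 in thymic ILC2 against 10.6 to 10.7 in DN1 (0.38, adjusted p = 0.191) and 13.7 to 14.6 in DN3 (-0.02, 0.949), and against DN1 it was called higher with RLE size factors (0.68, 0.0211) and DESeq2 (0.68, 0.0278). Division markers summed per non-mitochondrial counts to 9180 to 14000 CPM in thymic ILC2, above the 1570 to 1940 CPM of the floxed cultures of day 7.

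A few genes ran the other way. Fads2, the desaturase that starts polyunsaturated synthesis and lies next to Fads1 (chr19:10062765-10101746 and chr19:10182888-10196877, GRCm38), stood at 6.76 and 11.7 normalised CPM in thymic ILC2, against 2.75 and 3.80 in DN1 floxed cells (log2 change 1.5 ± 0.45, adjusted p = 0.0053) and 3.39 and 1.65 in DN3 (1.90 ± 0.48, 0.00121). Acaca, the acetyl-CoA carboxylase, stood at 78.5 and 53.6 against 25.9 and 47.4 in DN3 (0.84 ± 0.25, adjusted p = 0.00496). Neither gene overlapped in these comparisons. Abca1 stood at 6.44 and 8.88 in thymic ILC2 and at 0.170 and 0.137 in DN3, a ratio of 30.4 by library totals (95% interval 7.98 to 258, from 48 and 2 counts). Fads2 was lost against DN1 without thymic library 3 (1.06, 0.0954), and Acaca without thymic library 1 (0.52, 0.124) or DN3 floxed a (0.41, 0.175). The lower call of Abcg1 against DN3 (-0.74 ± 0.31, adjusted p = 0.0361) was lost without thymic library 1 (-0.42, 0.308) or DN3 floxed b (-0.72, 0.096), with RLE size factors (-0.41, 0.226) and with DESeq2 (-0.41, 0.243). That of Acly (-0.36, adjusted p = 0.00605) was lost with RLE size factors (-0.03, 0.847), with DESeq2 (-0.03, 0.859) and with the compared libraries fitted alone (-0.19, 0.31).

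With library totals in place of TMM the median of all genes moved to -0.99 against DN1 and -0.92 against DN3. Fads2 against DN1 (0.78, adjusted p = 0.131) and Acaca against DN3 (0.10, 0.702) did not pass. Lower genes then numbered 30 against DN1 and 33 against DN3. With mitochondrial genes left out before scaling they numbered 24 and 30.

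**Figure D4:**
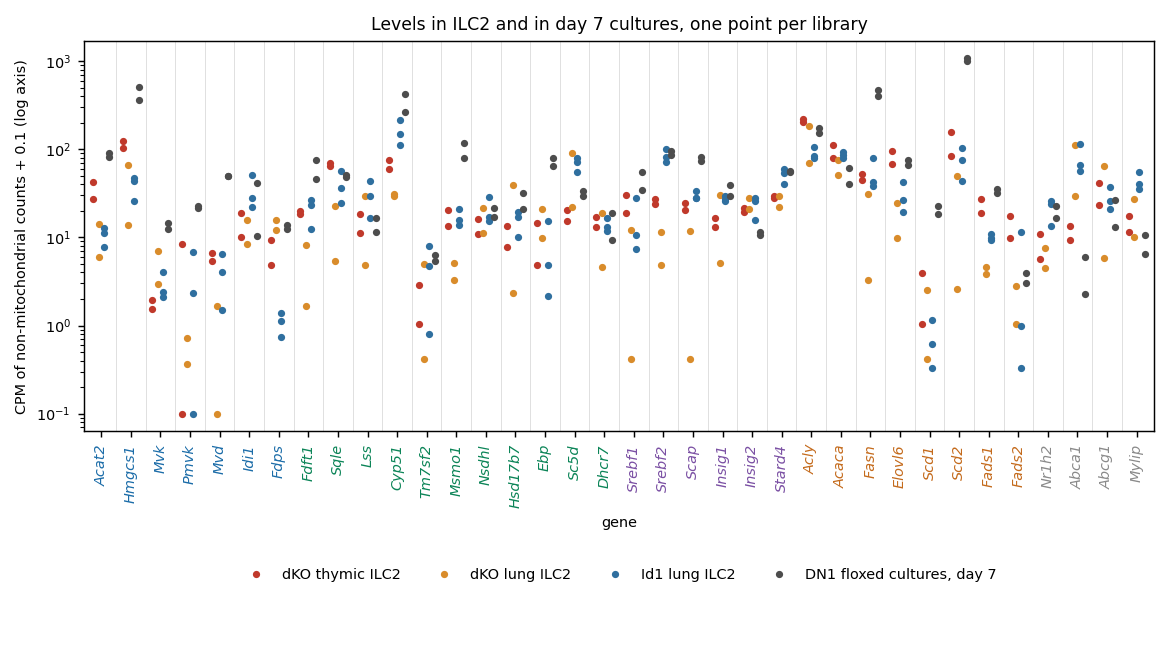
CPM of each gene among non-mitochondrial counts, plus 0.1, on a log axis, in dKO thymic ILC2, dKO lung ILC2, Id1 lung ILC2 and DN1 floxed cultures of day 7; each point is a library. Scd2 lies at 83.5 and 158 in thymic ILC2 and at 999 and 1070 in the DN1 floxed cultures, and Abca1 is higher in lung than in thymic ILC2 in every library.

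In the lung, dKO ILC2 were compared with Id1 ILC2 in 35 of the 36 genes, since Scd1 had 1 to 9 counts per library and was not tested. Here 1 gene was higher and 2 lower in dKO, against 14.4% higher and 3.66% lower among all 19371 genes tested. The dKO lung libraries had counts in 29734 and 30196 genes, from totals of 5627406 and 3695522 counts. The Id1 lung libraries had counts in fewer genes, 22504 to 24722, from larger totals of 9671437 to 13065445 counts. This difference in library content followed the titled groups, and its part in the lung calls was not tested. The spread between libraries was wide, with a biological coefficient of variation of 0.706 in the lung fit and 0.138 in the culture fit. Srebf2 stood at 6.52 and 5.02 normalised CPM in dKO lung against 42.8, 49.2 and 58.7 in Id1 lung (log2 change -3.11 ± 0.45, adjusted p = 0.015). Cyp51 stood at 16.9 and 33.1 against 67.0, 130 and 86.5 (-1.93 ± 0.45, adjusted p = 0.0283). Fdps stood at 9.15 and 12.7 against 0.774, 0.385 and 0.605 (4.17 ± 1.03, adjusted p = 0.0283). All 3 genes were separate between the groups as titled. Srebf2 held without any 1 of the 5 libraries. Cyp51 was lost without dKO library 3 (-2.47, 0.0606), and Fdps without dKO 3 (3.92, 0.105), Id1 library 1 (4.45, 0.0652) or Id1 library 3 (4.24, 0.073).

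The dKO lung libraries differed from each other in several other sterol and fatty acid genes. Fasn stood at 18.0 and 3.35 in dKO lung against 22.8, 26.1 and 46.8 in Id1 lung (log2 change -1.54 ± 0.69, adjusted p = 0.146). Scd2 stood at 28.7 and 2.68 against 26.3, 46.1 and 61.6, and Srebf1 at 6.98 and 0.335 against 6.40, 4.50 and 16.3. In each, dKO library 3 held the lowest value. Abca1 stood at 65.3 and 31.1 in dKO lung against 40.4, 34.3 and 68.4 in Id1 lung, with overlap, and Insig1 at 17.4 and 5.35 against 15.7, 16.4 and 17.5. The 9 ILC2 markers summed to 2750 to 8480 CPM per non-mitochondrial counts in dKO lung and to 8160 to 9970 CPM in Id1 lung. Per non-mitochondrial counts, surfactant and club cell markers summed to 26.2 to 77.3 CPM in dKO lung and 0.769 to 5.95 CPM in Id1 lung, macrophage markers to 33.8 to 86.7 and 11.8 to 80.0 CPM, and T cell markers to 48.0 to 472 and 273 to 431 CPM. The 6 adipocyte markers summed to 40.7 to 158 CPM in dKO lung and 184 to 196 CPM in Id1 lung, mostly Pparg, while Fabp4 had 0 counts in dKO and 0 to 1 in Id1 libraries, and Adipoq 34 and 1 in dKO libraries and 0 in Id1. Their part in these values was not tested.

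Levels of the dKO ILC2 of thymus and lung come from tables counted and scaled apart, so they are set side by side with no test, as CPM of non-mitochondrial counts. The 36 genes summed to 1200 to 1260 in thymic dKO ILC2, to 428 to 1080 in lung dKO ILC2 and to 994 to 1390 in lung Id1 ILC2. Abca1 stood at 9.28 and 13.3 in thymic dKO ILC2 and at 113 and 29.3 in lung dKO ILC2. Sqle stood at 69.6 and 63.7 in thymic and at 22.8 and 5.36 in lung dKO ILC2. Abca1 was thus the higher in both lung libraries and Sqle in both thymic ones. Acly, the citrate lyase that supplies cytosolic acetyl-CoA, stood at 201 and 218 in thymic and at 185 and 70.4 in lung dKO ILC2, and was the most counted of the 36 genes per kilobase in both.

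Of 28 further genes of these pathways, chosen as a list, 27 were tested. On day 7 in DN1 3 rose and 2 fell in floxed cells, shares of 11.1% and 7.41% against 12.2% and 10.3% of all genes. In DN3 on day 7, 7 rose and 5 fell, shares of 25.9% and 18.5% against 12.9% and 12%. On day 5, 2 rose and 0 fell in DN1, the first a share of 7.41% against 2.56%, and 3 rose and 3 fell in DN3, shares of 11.1% each against 4.56% and 5.20%. Rxra, the partner of LXR in its dimers, rose in both on day 7, with 50.2 and 71.0 CPM in DN1 floxed cells against 14.3 and 10.5 in controls (log2 change 2.35 ± 0.23, adjusted p = 8.53e-07), and 43.0 and 59.3 CPM in DN3 against 15.0 and 15.3 (1.83 ± 0.22, 7.57e-06). Tecr, a reductase of fatty acid elongation, rose too, with 99.9 and 134 CPM against 72.2 and 57.3 in DN1 (0.92 ± 0.22, adjusted p = 0.00627) and 93.9 and 98.1 against 60.7 and 54.3 in DN3 (0.81 ± 0.23, 0.0125). Rxra and Tecr did not overlap between genotypes. Acsl1, which activates long fatty acids, fell, with 14.4 and 7.06 CPM against 17.5 and 18.0 in DN1 (-0.67 ± 0.22, adjusted p = 0.038) and 8.12 and 9.75 against 18.3 and 19.0 in DN3 (-0.99 ± 0.23, 0.0034). Npc2, a lysosomal sterol carrier, passed in both with opposite signs, at -0.30 ± 0.07 in DN1 (adjusted p = 0.00534) and 0.24 ± 0.07 in DN3 (0.0216). How the calls of these further genes held with a library left out is not given here. The part of the muscle RNA of DN1 floxed day 7 library b in them was not tested.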

How the data were processed

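RNA-seq of 31 mouse libraries was used. The authors deposited whole-number counts per Ensembl gene in 1 table of the thymus and 1 of the lung. Per the submitters' processing notes the build was mm10 and DESeq2 was used; for aligner, counter and strand, the setting is not given in the sources used here. Symbols came from GENCODE M21. Depth was 3695522 to 13065445 counts per library, and intervals cover counting error only. Counts were fitted with edgeR 4.0.16 (R 4.3.3; TMM, filterByExpr with a minimum count of 10, quasi-likelihood F test) over the 24 culture libraries, the 26 libraries with thymic ILC2, or the 5 lung libraries. P-values were Benjamini-Hochberg adjusted over all genes tested, with a threshold of 0.05, and the scripts were tested on simulated data. The SE is the absolute log2 change over the root of F. Alternatives were DESeq2 1.42.0, RLE size factors, no low-count filter, the compared libraries alone, a replicate block and each library left out. Library totals without TMM, mitochondrial genes left out, day 4 libraries left out and a replicate block across precursors were added after seeing the data. All 36 genes are accounted for by role. Values per library are given for up to 10 genes called per genotype comparison, up to 6 each way per ILC2 comparison, and Srebf1, Srebf2, Insig1, Scd1, Scd2 and Abca1; other values shown were chosen after they were seen. The genes, lists and tests were chosen with earlier results of these data known.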

Additional observations from a re-analysis of the deposited data

Results flagged for a closer look

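The values here mark genes whose genotype difference itself differed, by an edgeR interaction contrast with an adjusted p under 0.05, between precursors or between days. Between DN1 and DN3 on day 7 the difference of log2 changes was -0.84 for Fdps, -0.62 for Sqle, -1.13 for Lss, -0.78 for Msmo1, -0.86 for Nsdhl, -0.96 for Stard4, -1.06 for Scd1 and -1.96 for Abcg1. In DN1 the genotype difference changed from day 4 to day 7 by -0.62 for Stard4, 0.54 for Fasn and -1.57 for Abcg1, and from day 5 to day 7 by 0.70 for Fasn. In DN3 it changed from day 4 to day 7 by 0.79 for Cyp51, 0.50 for Scd2 and -0.62 for Fads1. From day 5 to day 7 in DN3 it changed by 0.92 for Cyp51, 0.73 for Msmo1, 0.64 for Srebf2, 1.02 for Insig1 and 0.87 for Fasn. Of these 20 values, Stard4 and Abcg1 between precursors and Fasn in DN3 from day 5 to day 7 kept their calls without any 1 of the 8 libraries.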

How the results depend on the processing

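No called gene changed direction under any alternative run. DESeq2 kept 160 of the 167 calls and RLE size factors kept 161. Without the low-count filter 150 were kept and 17 lost. Fewer calls could be set beside the next fits: the compared libraries alone kept 118 and lost 46, and day 4 libraries left out kept 76 and lost 25. Over all fits with 1 library left out, a call was kept 516 times and lost 235 times. With the compared libraries fitted alone, the calls among the 36 genes numbered 2 for the DN1 genotype comparison of day 7, 12 for DN3 of day 7, 2 for the difference between precursors, 0 and 0 for the DN1 change from day 4 and from day 5, and, for day 7 against day 5, 0 in DN1 floxed, 10 in DN1 control and 13 in DN3 control cells. With no low-count filter they numbered 1 for DN3 on day 4, 12 for DN3 on day 7, 6 and 4 for the DN1 change from day 4 and from day 5, 5 for the DN3 change from day 4, and 6 in lung. The 1 of DN3 on day 4 was Sc5d (-0.70, adjusted p = 0.0052). DESeq2 gave 3 for the DN1 change from day 5. With day 4 libraries left out they numbered 3 for DN3 on day 5, 0 and 3 for the change from day 5 in DN1 and DN3, and 2 for DN1 controls of day 7 against day 5. Without 1 library the floxed against control calls numbered 0 to 0, 1 to 3 and 7 to 13 in DN1 on days 4, 5 and 7, and 0 to 0, 1 to 5 and 3 to 4 in DN3. The difference between precursors gave 4 to 10, the DN1 change 0 to 8 from day 4 and 0 to 7 from day 5, and the DN3 change 0 to 4 and 1 to 7. Day 7 against day 5 gave 6 to 11 in DN1 floxed, 0 to 1 in DN1 control, 5 to 10 in DN3 floxed and 3 to 5 in DN3 control cells. DN1 against DN3 controls gave 9 to 13 on day 5 and 4 to 7 on day 7, thymic ILC2 gave 26 to 28 against DN1 and 31 to 32 against DN3, and lung 1 to 6. Across days the deviations of same-letter libraries correlated at 0.15 to 0.21 in DN3 floxed cells and at -0.16 to 0.16 elsewhere, and across precursors at -0.24 to 0.12; the labels do not say what a letter marks, and a group holds 2 letters. Floxed and control cultures share no letters, so no block could be fitted between genotypes. With the replicate block the calls numbered 4 and 1 for the DN1 change from day 4 and day 5, 4 and 6 for the DN3 change, 7, 3, 11 and 7 for day 7 against day 5 in DN1 floxed, DN1 control, DN3 floxed and DN3 control cells, and 3 in lung, where Fdps was lost (3.94, adjusted p = 0.0507) and Scap gained (-2.81, 0.0433) beside Cyp51 and Srebf2. A block across precursors, added after seeing the data, gave 12 and 10 calls for DN1 against DN3 controls on days 5 and 7, and 7 for the difference between precursors, where Fdps (-0.83, 0.0676) and Nsdhl (-0.86, 0.0785) were lost and Idi1 gained (-3.45, 0.0456). The cause of each difference between settings was not tested. With 2 libraries in most groups and few counts for genes such as Abca1 in DN3 and Scd1 in ILC2, small changes could not be resolved.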
